A study of Hordeum vulgare with 12 samples.

Results

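The miR169 family was followed in small RNA libraries of root and of shoot tissue from the barley line Rolap (Hordeum vulgare). Members were all sequences whose matched miRBase entry, or every one of its joint entries, carried a MIR169 name. This gave 362 distinct sequences of the 6279 matched to miRBase, with 130 of 3812 in root and 345 of 4430 in shoot, and 113 found in both organs. No sequence named MIR169 together with another family. The libraries formed 4 groups of 3: low-Pi root, control root, low-Pi shoot and control shoot. All plants grew in a soil mix with 8 mg P per kg, low-Pi plants with nothing added and control plants with 60 mg P per kg added as KH2PO4, and both were harvested at day 23. A replicate was a pot of 3 plants, so tests within an organ set the group difference against the spread between pots. Replicates 4, 5 and 6 were low-Pi and replicates 16, 17 and 18 were control.

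miR169 is an old and large plant miRNA family. Its mature 5′ arm guides cleavage of transcripts of NF-YA factors, the DNA-binding subunit of the NF-Y transcription factor complex, and in Arabidopsis the pair is known for roles in drought and nitrogen responses. The 3′ arm is the strand that pairs with it in the precursor hairpin. The name of a sequence is that of the miRBase entry it matched, in whatever species, and not of a barley locus.

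The sequences below are the ones on which the results turned, printed 5′ to 3′ with T for U as deposited, and with bases 2 to 8 (the seed) in capitals. The 5′ forms shared 1 seed, which was present in 46 member sequences with 6045 reads in all. The printed 5′ forms differed in the first base, in the base directly after the seed and toward the 3′ end.
MIR169d 5′ (Aegilops tauschii), 22 nt: cAGCCAAGgatgacttgccggc
MIR169i 5′ (Aegilops tauschii), 21 nt: tAGCCAAGgatgacttgcctg
MIR169d 5′ (Brachypodium distachyon), 20 nt: tAGCCAAGaatgacttgcct
The 3′ forms fell into 2 seed groups, one of 4 sequences with 4587 reads and one of 10 sequences with 1085 reads. The first pair below belongs to the larger group by reads, and the second pair to the other.
MIR169c 3′ (Aegilops tauschii), 19 nt: gGCGGTCAccttggctagc
MIR169c 3′ (Aegilops tauschii), 20 nt: gGCGGTCAccttggctagcc
MIR169i 3′ (Aegilops tauschii), 19 nt: gGCAGTCTccttggctagc
MIR169c 3′ (Solanum tuberosum), 19 nt: gGCAGTCTccttggctacc
Precursor matches are sequences that the deposited tables assign to the hairpin of an entry and not to its annotated mature strands. The first one below was the most abundant of them, the next began 9 bases upstream of the 22-nt 5′ form and matched it over their 12 shared bases, and the last was the precursor sequence called in shoot.
MIR169h precursor (Aegilops tauschii), 21 nt: aAGGATGActtgccgggtatg
MIR169d precursor (Aegilops tauschii), 21 nt: aACGGGATgcagccaaggatg
MIR169c precursor (Brachypodium distachyon), 21 nt: tTGGCTACacctagttctctt

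The family was made of a few abundant sequences and many rare ones. The 12 libraries held 18668 miR169 reads, of which the 2 most abundant sequences, MIR169c 3′ of 19 nt and MIR169d 5′ of 22 nt, took 44.2%. RPM, used throughout, is the reads of a sequence for every 1000000 reads kept in its library. The 30 sequences that averaged 1 RPM or more in some group held 85.7%, whereas 259 sequences had 10 reads or fewer over all libraries and 113 had a single read. By arm, 67 sequences of the 3′ arm held 38.1% of the reads, 81 of the 5′ arm held 37.1% and 214 precursor matches held 24.8%. Entries of Aegilops tauschii, a wild relative of wheat, accounted for 82.4% of the reads.

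Library totals ran from 7470998 to 17614581 reads, and 3 reads corresponded to between 0.170 and 0.402 RPM. Low-Pi root libraries were all larger than control root libraries. Shoot low-Pi replicate 6 stood apart from its group, with a chi-square per degree of freedom over miRBase sequences of 89.7 to replicate 4 and 107 to replicate 5, where other replicate pairs had 5.61 to 32.1. Sequences matched to miRBase made up 0.940% to 1.22% of low-Pi root reads, 1.61% to 1.91% of control root reads, 5.01% to 5.83% of low-Pi shoot reads and 5.53% to 6.39% of control shoot reads. miR399 and miR827, families known to rise under Pi starvation, were higher under low Pi in both organs. miR399 averaged 13.5 ± 2.22 RPM in low-Pi root and 3.90 ± 1.28 RPM in control root, and 353 ± 59.5 RPM in low-Pi shoot and 19.3 ± 6.44 RPM in control shoot (SD, n = 3 each).

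In shoot, the miR169 family sum stood higher under low Pi in every library. It was 253, 530.3 and 224 RPM in low-Pi replicates 4, 5 and 6, against 116, 198 and 95.9 RPM in control replicates 16, 17 and 18. The groups did not overlap, a state shared by 15.4% of the 65 shoot families tested in the same direction, and low-Pi replicate 5 alone gave 52.7% of the summed low-Pi level. Means were 336 ± 169 RPM in low-Pi shoot and 137 ± 54.3 RPM in control shoot (SD, n = 3 each). The log2 fold change of 1.29 ± 0.41 (SE) did not pass (edgeR quasi-likelihood test, adjusted p = 0.102), although it was the fourth highest of the 65 families, of which 4.62% were called. With all 12 libraries sharing 1 estimate of the spread, the same log2 fold change of 1.29 had an adjusted p of 0.0337 (7.41% of 81 families were called higher in that fit), and with DESeq2 the log2 fold change was 1.22 (adjusted p = 0.0155). Over the 6 fits that each left out 1 library the log2 fold change lay between 0.80 and 1.66, with adjusted p between 0.0518 and 0.383. It was 1.52 without low-Pi replicate 6 (adjusted p = 0.0518) and 0.80 without low-Pi replicate 5 (adjusted p = 0.261). In bulk tissue, a change in the number of cells of a type and a change in RNA per cell cannot be told apart.

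In root, the family was scarce and the groups overlapped. It was 12.6, 10.96 and 17.4 RPM in low-Pi replicates 4, 5 and 6, against 9.53, 29.5 and 19.7 RPM in control replicates 16, 17 and 18. Control replicate 17 was the highest root library and control replicate 16 the lowest. Means were 13.7 ± 3.37 RPM in low-Pi root and 19.6 ± 10.003 RPM in control root (SD, n = 3 each), with a log2 fold change of -0.51 ± 0.33 (SE, edgeR adjusted p = 0.202), where 37.7% of the 53 root families tested were called. The median root family itself had a log2 fold change of -0.42, so that miR169 lay at -0.088 relative to it. With the miRBase reads of each library as its size, the log2 fold change was 0.074 (adjusted p = 0.911), so no direction was established in root. Without control replicate 16 it was -0.85 (adjusted p = 0.0133).

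**Figure D1:**
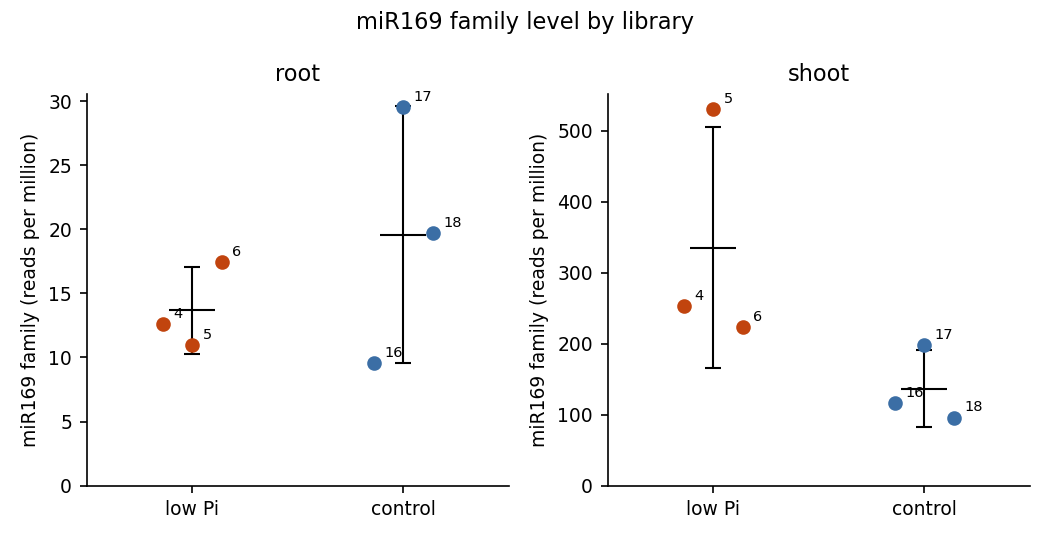
miR169 family level in RPM (vertical axes from 0, a separate scale for each organ) for low Pi and control, with 1 point per library labelled by replicate number and the mean with SD as a line and bars. The low-Pi shoot points (224 to 530.3) all lie above the control shoot points (95.9 to 198), while the root groups overlap.

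The low-Pi effect was called lower in root than in shoot on the RPM scale, but not with 3 other scalings. The difference of the log2 effects (root minus shoot) was -1.81 ± 0.54 (SE, edgeR adjusted p = 0.0265), against a median of -0.67 over 81 families, of which 16% were called. It was -0.80 with TMM factors (adjusted p = 0.485), -1.41 with the miRBase reads as library size (adjusted p = 0.155) and -1.21 with DESeq2 (adjusted p = 0.302). Leaving out 1 of the 12 libraries at a time gave values between -2.18 and -1.31, and 7 of the 12 fits lost the call (those without root low-Pi replicates 4 or 5, root control replicates 17 or 18, shoot low-Pi replicate 5, or shoot control replicates 16 or 18). Of 28 member sequences in that fit, 3 were called, all with the lower effect in root, where 7.71% of 545 sequences were called lower.

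The 3′ arm spread more widely than the 5′ arm among the low-Pi shoot libraries, mostly through low-Pi replicate 5. The 5′ arm had 110 RPM in low-Pi replicate 4, 148 in replicate 5 and 111 in replicate 6, against 49.1, 78.6 and 38.8 RPM in control replicates 16, 17 and 18. The 3′ arm had 91.0, 284 and 59.3 RPM in the same low-Pi libraries, against 27.8, 52.5 and 21.9 RPM in control. Neither arm overlapped between the groups, with low Pi higher, a state shared by 15.4% of the 65 shoot families tested. Low-Pi replicate 5 alone carried 65.4% of the summed 3′ level and 40.2% of the 5′ level. Precursor matches overlapped, with 52.3, 97.9 and 53.2 RPM in low-Pi shoot against 39.4, 67.3 and 35.1 RPM in control shoot. The log2 fold changes were 2.09 ± 0.61 for the 3′ arm (edgeR adjusted p = 0.0842), 1.15 ± 0.31 for the 5′ arm (0.0783) and 0.52 ± 0.36 for precursor matches (0.519), so none passed. Without low-Pi replicate 5 the 3′ arm had its lowest log2 fold change, 1.14, and without low-Pi replicate 6 it passed at 2.46 (adjusted p = 0.0295). The 5′ arm passed without control replicate 17 (log2 1.48, adjusted p = 0.0451). The coefficient of variation among low-Pi shoot libraries was 84.1% for the 3′ arm, 17.8% for the 5′ arm and 38.4% for precursor matches. In control shoot it was 47.6% for the 3′ arm and 37.2% for the 5′ arm, and in low-Pi root the order was the other way, 22.1% for the 3′ arm and 44.0% for the 5′ arm.

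**Figure D2:**
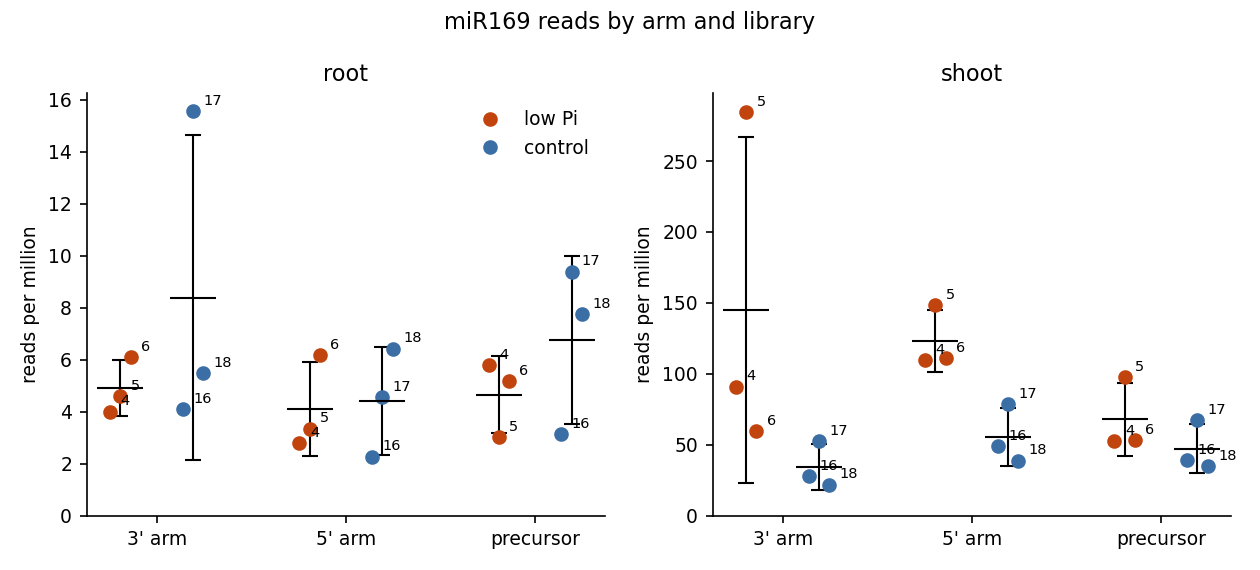
RPM of the 3′ arm, the 5′ arm and precursor matches (horizontal axis) in root and shoot, low Pi left of control in each pair, 1 point per library with its replicate number, mean and SD. In shoot the 5′ arm separates the groups (110 to 148 under low Pi against 38.8 to 78.6 in control). The 3′ arm does so too (59.3 to 284 against 21.9 to 52.5), and its low-Pi replicate 5, at 284, stands far above the rest.

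Arm levels in root were low and mixed. The 3′ arm averaged 4.90 ± 1.08 RPM in low-Pi root and 8.39 ± 6.26 RPM in control root, with control replicate 17 at 15.6 RPM. The 5′ arm averaged 4.11 ± 1.81 RPM in low-Pi root and 4.42 ± 2.08 RPM in control root, and precursor matches 4.66 ± 1.46 and 6.77 ± 3.24 RPM (SD, n = 3 each). None was called (edgeR adjusted p = 0.115 for the 3′ arm, 0.851 for the 5′ arm and 0.290 for precursor matches). Without control replicate 16 the 3′ arm was called (log2 -1.11, adjusted p = 0.0060), as were precursor matches (-0.89, adjusted p = 0.0334), and without control replicate 17 the 3′ arm had a log2 fold change of 0.040.

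Of 12 shares that describe the composition of the family, 4 separated the groups in shoot and none in root. The shares are parts of the same reads and are not independent. The most abundant sequence, a 3′ form of 19 nt, held 4202 of the 5705 reads of that length. Precursor matches averaged 67.8 ± 26.1 RPM in low-Pi shoot and 47.3 ± 17.5 RPM in control shoot, so their lower share was not a lower level. Precursor matches made up 20.7%, 18.5% and 23.8% of miR169 reads in low-Pi shoot against 33.8%, 33.9% and 36.7% in control shoot, and the 3′ arm 36.0%, 53.6% and 26.5% against 23.9%, 26.5% and 22.8%. Sequences of 21 nt made up 25.8% ± 4.72 in low-Pi shoot and 38.4% ± 0.68 in control shoot, and those of 19 nt 31.6% ± 12.6 and 18.1% ± 1.19 (SD, n = 3 each). These 4 shares did not overlap, the 3′ share by the narrowest margin (26.53% in low-Pi replicate 6 and 26.46% in control replicate 17), and each had an exact two-sided permutation p of 0.1, the smallest that 3 against 3 libraries allow (0.3 after Benjamini-Hochberg adjustment over 12 shares). The 5′ share was 40.3% ± 11.2 in low-Pi shoot and 40.8% ± 1.33 in control shoot (exact permutation p = 1). Of the 5′ reads, those that began with C made up 66.7% ± 5.17 in low-Pi shoot and 65.4% ± 5.29 in control shoot (exact permutation p = 0.7). The numbers of root reads behind the shares were small, between 109 and 263 per library.

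**Figure D3:**
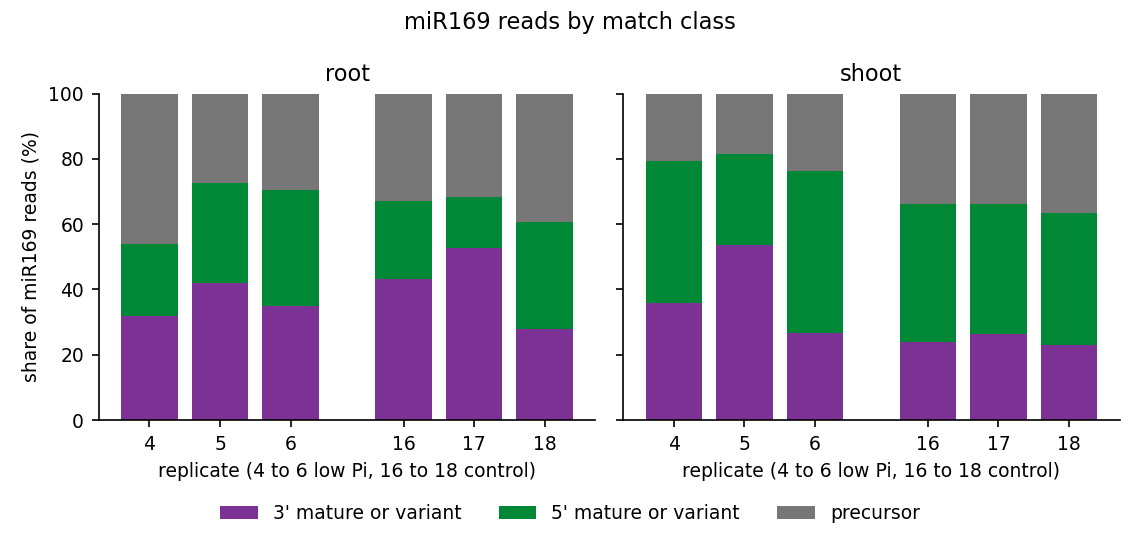
Share of miR169 reads (percent, bars from 0 to 100) by match class in each library, low-Pi replicates 4 to 6 left of control replicates 16 to 18. In shoot the precursor share is 18.5% to 23.8% under low Pi and 33.8% to 36.7% in control, and the root shares overlap.

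Single sequences were tested in shoot for the 27 of 345 members that passed the count filter. Of these, 7 were higher under low Pi and none lower, while 9.3% of all 484 shoot sequences tested were called higher. In 7 of the 27 the groups did not overlap, with low Pi higher, a state shared by 16.7% of those sequences. In all, 26 of the 27 had a positive log2 fold change, with a median of 0.97 beside 0.066 over all sequences tested. The count filter asked for enough reads in as many libraries as a group holds. Called members such as the Solanum tuberosum MIR169c 3′ form and the Brachypodium distachyon MIR169c precursor match would not have met it on control libraries alone. The number called, the signs and the median can therefore lean toward low Pi and are a description only. Many of the 27 overlap in sequence, so they are not independent. By arm, 3 of 9 sequences of the 3′ arm, 3 of 8 of the 5′ arm and 1 of 10 precursor matches were called. The number called was 2 without low-Pi replicate 5, without control replicate 16 or without control replicate 18.

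The most abundant 5′ form, MIR169d of 22 nt, had 73.3, 86.0 and 62.8 RPM in low-Pi replicates 4, 5 and 6, against 32.0, 45.3 and 20.2 RPM in control replicates 16, 17 and 18. All low-Pi libraries lay above all control libraries (log2 1.19 ± 0.31 SE, edgeR adjusted p = 0.0292). MIR169i 5′ of 21 nt, which begins with T, had 9.83, 22.3 and 13.8 RPM in low-Pi shoot, against 4.62, 7.43 and 4.42 RPM in control shoot (log2 1.48 ± 0.35, edgeR adjusted p = 0.0199). MIR169d 5′ of 20 nt had 4.98, 9.12 and 9.18 RPM in low-Pi shoot, against 1.19, 4.16 and 2.16 RPM in control shoot (log2 1.63 ± 0.44, edgeR adjusted p = 0.0338). These 3 forms share the seed printed above, and none kept its call in all 6 fits that left out 1 library. The whole seed group had 98.2, 131 and 98.5 RPM in low-Pi shoot, against 42.3, 65.3 and 32.4 RPM in control shoot.

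The 3′ seed groups differed in which low-Pi library was low. MIR169c 3′ of 19 nt, the most abundant sequence of the family, had 61.9, 186 and 17.1 RPM in low-Pi replicates 4, 5 and 6, against 15.2, 29.2 and 12.9 RPM in control replicates 16, 17 and 18. Low-Pi replicate 6 lay within the control range, and the sequence was not called (log2 2.21 ± 0.65 SE, edgeR adjusted p = 0.0517). Its 20-nt extension had 3.41, 19.2 and 1.33 RPM in low-Pi shoot, against 0.373, 1.55 and 0.282 RPM in control shoot, and was called (log2 3.41 ± 0.91, edgeR adjusted p = 0.0321) although the groups overlapped. It kept its call in 3 of the 6 fits that left out 1 library, losing it without control replicate 16 or 18 and without low-Pi replicate 5, where the log2 fold change was 1.69 (adjusted p = 0.145).

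In the other 3′ seed group replicate 6 was not low. MIR169i 3′ of 19 nt had 5.19, 21.5 and 11.7 RPM in low-Pi replicates 4, 5 and 6, against 1.27, 3.35 and 1.41 RPM in control shoot (log2 2.66 ± 0.53 SE, edgeR adjusted p = 0.0060). The potato MIR169c 3′ form of 19 nt had 3.55, 19.6 and 9.09 RPM in low-Pi shoot, against 0.522, 1.31 and 0.188 RPM in control shoot (log2 3.95 ± 0.68, edgeR adjusted p = 0.0024). Its value in control replicate 18 lay below the floor of 3 reads in that library, 0.282 RPM, so the size of this fold change is uncertain. Both sequences stayed called in all 6 fits that left out 1 library, with log2 fold changes between 2.06 and 3.25 and between 3.18 and 4.82. The potato form would not have met the count filter on control libraries alone, so its calls are a description only. Both differ from the 19-nt MIR169c form of the other seed group within the capitals.

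Of the precursor matches, the Brachypodium distachyon MIR169c sequence had 2.39, 2.47 and 1.80 RPM in low-Pi shoot, against 0.745, 0.816 and 0.564 RPM in control shoot (log2 1.63 ± 0.40 SE, edgeR adjusted p = 0.0206). It kept its call in 1 of the 6 fits that left out 1 library. The 2 most abundant precursor matches were not called: MIR169h of 21 nt had 15.2, 24.2 and 12.02 RPM in low-Pi shoot against 9.91, 17.5 and 8.65 RPM in control shoot, and MIR169d of 21 nt had 9.83, 21.9 and 10.03 RPM against 10.1, 16.1 and 8.93 RPM (edgeR adjusted p = 0.462 and 0.750).

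**Figure D4:**
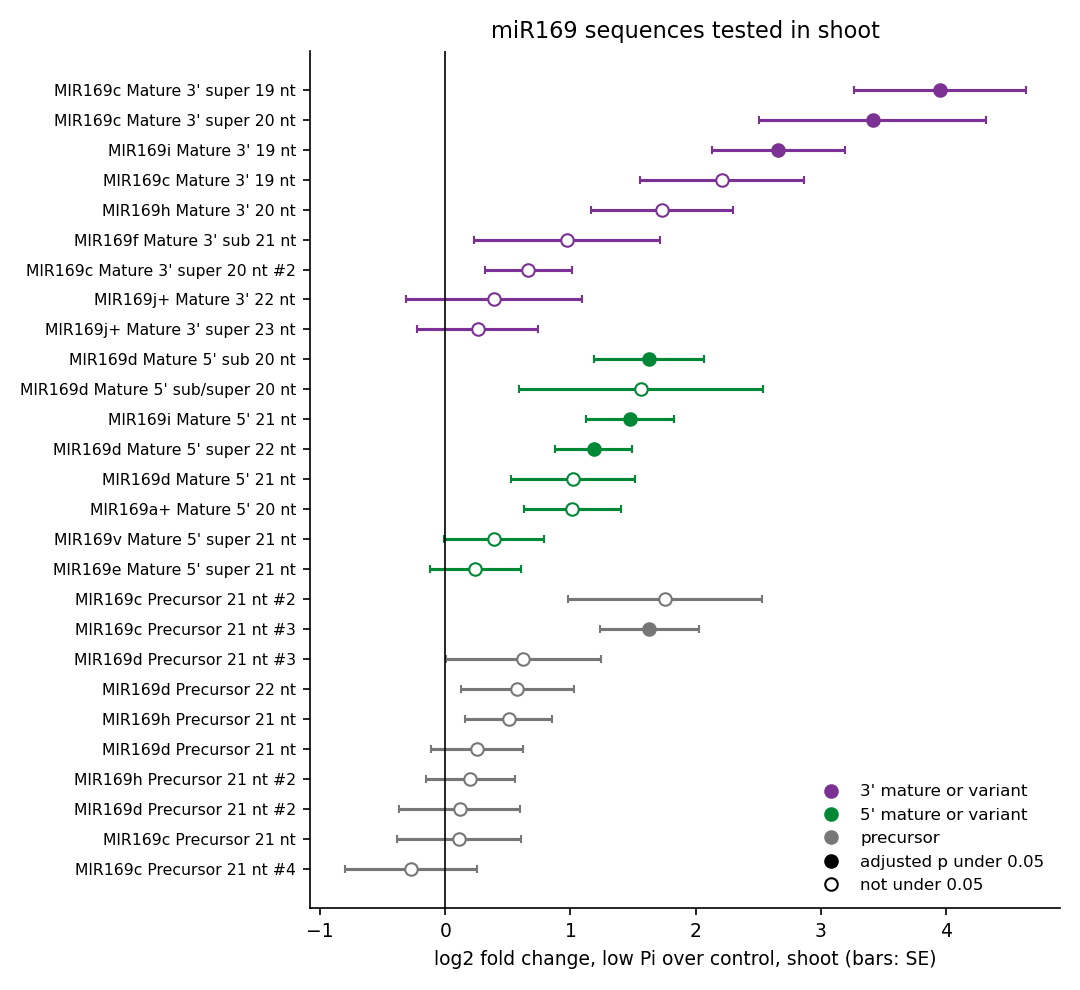
Log2 fold change (low Pi over control, horizontal axis, bars are SE) of the 27 miR169 sequences tested in shoot, grouped by arm and named by miRBase entry, match type and length (super, longer than the entry; sub, shorter; a number sign separates sequences of 1 name). Filled points passed the adjusted p threshold of 0.05, and 26 of 27 lie right of 0.

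In root, 6 of 130 members passed the count filter and none was called (edgeR quasi-likelihood test, 0 of 6 also at an unadjusted p under 0.05, and 0 with DESeq2), where 36.1% of the 285 root sequences tested were called. Without control replicate 18, 2 were called. Their median log2 fold change with all libraries was -0.35, beside -0.66 over all sequences tested. MIR169i 3′ of 19 nt had 0.333, 0.511 and 0.464 RPM in low-Pi root, against 0.787, 0.989 and 0.803 RPM in control root. It was the single member of the 6 without overlap, a state shared by 40.7% of root sequences in that direction (log2 -0.95 ± 0.46 SE, edgeR adjusted p = 0.107). All 6 values rest on few reads, where the floor of 3 reads was 0.170 RPM in low-Pi replicate 5 and 0.402 RPM in control replicate 18. As read counts the groups overlapped, and the low-Pi root libraries were all larger. MIR169d 5′ of 22 nt had 0.533, 0.568 and 1.39 RPM in low-Pi root, against 0.787, 1.24 and 0.937 RPM in control root, and these groups overlapped.

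Between organs, the family was lower in root than in shoot as RPM. The log2 difference, root over shoot, was -4.62 ± 0.44 (SE) under low Pi (edgeR adjusted p = 1.24e-09) and -2.81 ± 0.41 under control Pi (adjusted p = 1.6e-06). Of 81 families, 96.3% were called under low Pi and 91.4% under control Pi, and the median family was itself lower in root, at -2.62 and -1.96. With TMM factors the control Pi difference was -0.86 (adjusted p = 0.0762) and with DESeq2 -0.78 (adjusted p = 0.110), whereas the low-Pi difference stayed called at -1.66 and -1.99.

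Members were not equally low in root. Under control Pi, 22 of 28 tested sequences were lower in root and 1 higher, where 64.6% of all 545 sequences were called lower and 14.3% higher. The count depended on the scaling: 14 were lower and 2 higher with TMM factors, 12 lower and 5 higher with the miRBase reads as library size, and 13 lower and 2 higher with DESeq2. MIR169i 3′ of 19 nt and the Brachypodium distachyon MIR169c precursor match lost their call with each of these scalings, as did MIR169c 3′ of 19 nt. Under low Pi 26 of the 28 were lower in root, where 78.5% were. Under control Pi the 5′ arm had a log2 difference of -3.67 ± 0.41 and the 3′ arm -2.03 ± 0.53 (SE). For the 3′ arm the control Pi value was 0.052 with DESeq2 (adjusted p = 0.940). Under low Pi the arms were alike, at -4.90 ± 0.43 for the 5′ arm and -4.88 ± 0.59 for the 3′ arm. MIR169d 5′ of 22 nt averaged 0.987 ± 0.229 RPM in control root and 32.5 ± 12.6 RPM in control shoot (log2 -5.05 ± 0.43, and -3.53 with TMM factors, where it was still called). MIR169a 5′ of 20 nt, a form named for 8 potato entries, averaged 1.05 ± 0.690 RPM in control root and 1.24 ± 0.413 RPM in control shoot (log2 -0.29 ± 0.51, edgeR adjusted p = 0.598). An 18-nt precursor match to MIR169e and MIR169f was the one sequence higher in root, and its letters lie wholly within those of a 21-nt MIR169f 3′ form. It had 0.175, 1.61 and 0.803 RPM in control root against 0.0745, 0.0816 and 0.0940 RPM in control shoot (log2 3.16 ± 0.89, edgeR adjusted p = 0.0025). These shoot values were 1 read per library, below the floor of 3 reads, and the call did not hold under low Pi (log2 1.29, adjusted p = 0.0724).

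In shoot the spread between pots was wider for this family than for most others. Its coefficient of variation was 50.4% in low-Pi shoot and 39.7% in control shoot, where the median family with at least 10 RPM had 20.1% and 13.9%. In low-Pi shoot 4 of 41 such families varied more, and in control shoot 2 of 39. In low-Pi root the value was 24.7%, beside a median of 17.5% and with 4 of 26 families higher, and in control root it was 51.1%, beside a median of 23.6% and with none of 25 higher. There miR169 was among the rarest of these families, 25 of 26 by mean in low-Pi root and 23 of 25 in control root. The biological coefficient of variation fitted by edgeR was 0.250 for miR169 in root, ranked 30 of 53 families (common value 0.241), and 0.363 in shoot, ranked 9 of 65 (common value 0.279).

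Over the 12 libraries, the families whose log2(RPM + 1) levels were most like those of miR169 were miR408 (Pearson r = 0.978, Spearman rho = 0.937), a family linked to copper proteins, miR530 (0.965, 0.865) and miR9662 (0.965, 0.916), among 81 families. The 12 points share the organ difference, which sets most of their range. Within the 6 shoot libraries alone r was 0.818, 0.827 and 0.803, and within the 6 root libraries 0.847, -0.149 and 0.499.

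Of 10 families chosen as nutrient responders, 6 were tested in root and 8 in shoot. In root, miR399 (log2 1.81) and miR827 (1.68) were higher and miR393, which acts on auxin receptor transcripts, was lower (-1.43, edgeR adjusted p = 0.0105), so 3 of 6 were called, beside 37.7% of all 53 root families. In shoot miR399 (4.19) and miR827 (3.31) were higher and the others were not called, among them the nitrogen-linked miR167 (log2 -0.68, edgeR adjusted p = 0.102), miR393 (-0.13) and miR444 (0.21). These were 2 of 8, beside 4.62% of all 65 shoot families. The list was chosen with results of these data known.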

How the data were processed

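Small RNAs of 12 libraries were analysed. The authors trimmed reads in CLC Genomics Workbench (version not given in the sources used here), kept reads of 18 to 25 nt, and matched them to miRBase without mismatches and by strand, which gave the deposited counts per distinct sequence. The deposited RPM values are those counts per 1000000 reads kept. Library totals were recovered as count over RPM, and every sequence gave the same total within a library. The authors' columns of fold changes and p-values were not used, nor their tables of sequences without a miRBase match, nor 12 per-sample columns that equal the counts.

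Counts, and their sums by family (the number in the name), were fitted across all families or sequences with edgeR 4.0.16 (R 4.3.3) quasi-likelihood tests with Benjamini-Hochberg adjustment at 0.05, filterByExpr at a minimum count of 10, and the recovered total as library size. Each organ was fitted on its own 6 libraries, and organ and interaction terms on all 12. Sums by arm were added after the data were seen. Shares were compared with exact permutation tests (scipy 1.17.1). The fits were tested on simulated data. Alternatives were TMM factors, miRBase reads as library size, no filter, DESeq2 1.42.0, other member sets, a replicate block and leaving out each library. Named sequences were those with a group mean of at least 1 RPM or called in some fit, the most abundant of each match type, the 3 families most like miR169 and a nutrient list. Members and lists were chosen with earlier results of these data known. The SD and SE given include the spread between pots, whereas the floor of 3 reads covers counting error only. No genome was used, so no coordinates are given, and identical reads from several loci cannot be separated.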

Additional observations from a re-analysis of the deposited data

Results flagged for a closer look

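The low-Pi effects in root and shoot differed by the test of their difference (root minus shoot, log2, edgeR adjusted p under the threshold) in 5 cases. These were the family sum at -1.81 (adjusted p = 0.0265), the 3′ arm at -2.85 (0.0144), MIR169i 3′ of 19 nt at -3.61 (0.0048), MIR169c 3′ of 19 nt at -3.37 (0.0280) and the Brachypodium distachyon MIR169c precursor match of 21 nt at -5.62 (0.0309). The last rests on 0 reads in all low-Pi root libraries and 1, 0 and 3 reads in control root, so its size depends on the prior count and is no bound. The root side of MIR169i 3′ of 19 nt also rests on few reads, at 0.333 to 0.989 RPM over the root libraries. The median family had -0.67 and the median sequence -0.78. The family call was lost with TMM factors, miRBase reads as library size and DESeq2, and the 3′ arm call with TMM factors (-1.29, adjusted p = 0.241) and DESeq2 (-2.23, adjusted p = 0.0554), and without root low-Pi replicate 5 (-2.81, adjusted p = 0.0686) or root control replicate 17 (-2.05, adjusted p = 0.0957). Groups of 3 libraries are too small for the test of single outlying samples.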

How the results depend on the processing

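The shoot family effect (log2 1.29) was positive under every alternative and passed the threshold without the count filter (1.29), with DESeq2 (1.22) and with all 12 libraries (1.29); leaving out 1 library gave 0.80 to 1.66. The root family effect was 0.074 with miRBase reads as library size and -0.85 to -0.084 on leaving out 1 library. The root minus shoot difference lost its call with TMM factors (-0.80), miRBase reads (-1.41) and DESeq2 (-1.21), and ran from -2.18 to -1.31 on leaving out 1 library. Root over shoot under control Pi lost its call with TMM factors (-0.86) and DESeq2 (-0.78); leaving out 1 library gave -3.24 to -2.44, and -4.84 to -4.12 under low Pi. Called sequences numbered 13 in shoot without the filter (7 with it, 2 to 8 on leaving out 1 library), 0 to 2 in root, and 15 between organs with DESeq2 (23 with edgeR, 23 to 28 on leaving out 1 library). By arm, the root effect changed sign for the 5′ arm with TMM factors (0.21), miRBase reads (0.52) and DESeq2 (0.28), and on leaving out 1 library (-0.50 to 0.28), for the 3′ arm on leaving out 1 library (-1.11 to 0.040) and for precursor matches with miRBase reads (0.049). The root minus shoot difference changed sign with TMM factors for the 5′ arm (0.28) and precursor matches (0.46), and the control Pi organ difference with DESeq2 for the 3′ arm (0.052). The 3′ share of mature reads, low Pi minus control, ran from 2.67 to 18.1 percentage points in shoot and from -15.4 to 0.24 in root on leaving out 1 library. The cause of these changes was not tested. The root results rest on 1140 miR169 reads, against 17528 in shoot, while the SE of the family effect was 0.33 in root and 0.41 in shoot.

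Root and shoot libraries share replicate numbers, and the labels do not say whether libraries of the same number came from the same pot. The main organ and interaction fits treated them as independent. With that number as a replicate block the root minus shoot difference was -1.65, the organ differences were -2.87 under control Pi and -4.52 under low Pi, and the calls of these 3 family results held. Under control Pi 25 sequences were called between organs with the block, against 23 without it. Deviations of same-numbered libraries correlated at -0.369 to 0.116 over 81 families, and 1 of 6 numbers correlated best with its own. These correlations cannot settle whether pots were shared.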
